A study of Danio rerio with 26 samples.

Results

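The fish described here shared age, strain label, sex and rotenone concentration, but carry numbers from 2 separate runs. They were the 9 male zebrafish aged 1 year that received rotenone at 37.5 nM, out of 26 fish in the series, with 1 skin RNA-seq library per fish. The numbers come from the sample titles: fish 173, 174, 175 and 177 form the low number run (n = 4) and fish 198, 199, 200, 201 and 202 the high number run (n = 5). All genes were compared between the runs. The labels do not say what separates the runs. A difference in housing, exposure time, sampling, library preparation or skin state therefore cannot be told apart from the run itself.

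All 9 fish have the strain label AB JxTu, and the tissue label is skin. The other fish were 9 males aged 1 year of the same strain label at 3.75 nM and 8 males aged 3 years at 37.5 nM, whose strain label adds Tg(flk:mCherry). Each of these groups also holds a low run (fish 164 to 167 and 178 to 181) and a high run (fish 189 to 193 and 194 to 197). No untreated fish were analysed here, so rotenone is shared by every fish and no value can be assigned to rotenone. Neither how long treatment lasted nor when in the day skin was taken is stated in the labels.

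Fish skin is a mucus-covered epidermis of keratinocytes with mucous cells, ionocytes and immune cells, lying over a collagen-rich dermis that holds scales, pigment cells, vessels and nerves. Rotenone blocks complex I of the mitochondrial respiratory chain. Skin is exposed to the water, and its cells respond to dissolved chemicals through the aryl hydrocarbon receptor, to cortisol through the glucocorticoid receptor and to light through a local circadian clock.

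Assigned counts ranged from 25968091 to 32414459 per fish, and 7.22% to 11.8% of them fell on genes of the mitochondrial genome. Over all 26 fish the range was 25454674 to 35162246. Defining keratins of the epidermis were abundant in each of the 9 libraries, with krt5 at 20300 to 35400 CPM (counts per 1e6 assigned counts, scaled by the trimmed mean of M values) and krt4 at 3090 to 5570 CPM. In type I collagen, 2 fish stood apart from their own run: fish 173 of the low run was high and fish 202 of the high run was low. Skeletal muscle transcripts summed to 7690 to 22800 CPM in 8 fish and to 50800 CPM in fish 198. Values of single fish below are in the order 173, 174, 175, 177 for the low run and 198, 199, 200, 201, 202 for the high run. Log2 fold changes are high run minus low run, with a standard error after ±.

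The runs differed in the skin transcriptome. With edgeR's quasi-likelihood test, 1513 of 19055 genes tested (7.94%) had a Benjamini-Hochberg adjusted p under 0.05, and such genes are referred to as called. Of them 709 (3.72% of genes tested) were higher and 804 (4.22%) lower in the high run, 360 and 271 by more than 2-fold. Counts of called list members below are to be read against these shares of 3.72% and 4.22%. The lists were chosen with earlier results of these data known, so the counts describe them and are no independent test. At an unadjusted p under 0.05, 5526 genes passed. The p-values set the run difference against the spread between these fish within a run. How much other runs of fish would differ from each other is not measured by them. The values of the 4 low-run fish and the 5 high-run fish did not overlap for 1294 of the called genes (85.5%), against 2363 of all genes tested (12.4%). The median log2 fold change over all genes was 0.009. On the first principal component, which held 33.1% of the variance, the low-run fish lay at -19.7, -46.3, -57.2 and -52.2 and the high-run fish at 63.5, 52.6, 18.1, 30.0 and 11.2. Fish 173 and fish 202 were the closest to the other run.

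**Figure D1:**
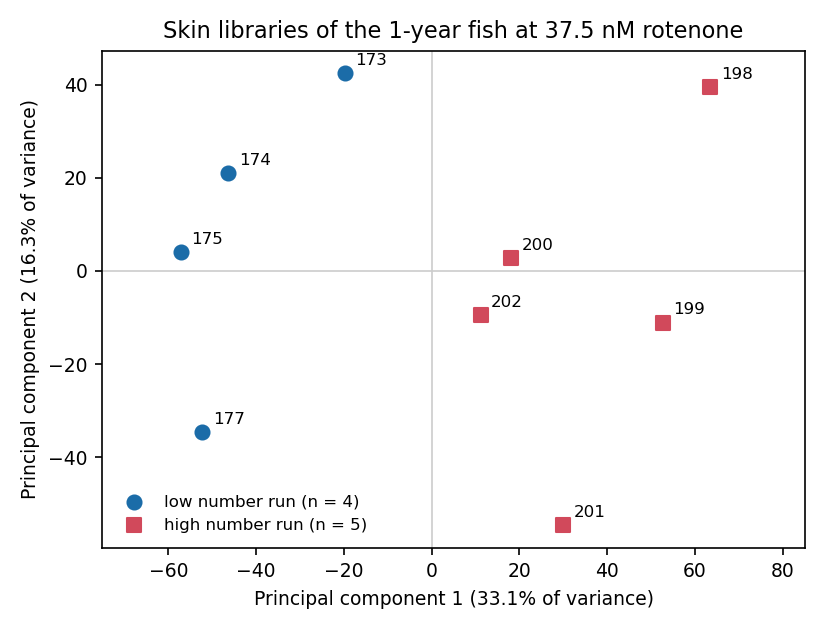
Positions of the 9 libraries on the first and second principal components of log2 CPM (33.1% and 16.3% of the variance), with the fish number beside each point. Circles are the low number run and squares the high number run. All 4 low-run fish lie below 0 on the first component and all 5 high-run fish above 0.

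The number of called genes depended on single fish. Without fish 174 there were 133 calls, without fish 199 there were 268, without fish 175 there were 319 and without fish 177 there were 447. Without fish 198 or 201 there were 758 and 796 calls, and without fish 200 there were 2334. Without fish 173 or fish 202, the 2 fish that stood apart in collagen, there were 1483 and 1459. Of 137 called genes picked for description, 29 remained called in all 9 fits that leave out 1 fish, and 107 were not called without fish 174. Most calls also ended when more fish shared the fit: 73 of the 137 with 17 fish and 105 with 26 fish, while 38 ended with the muscle mean as a term, 21 with no filter and 0 with DESeq2. CYP1A1, OAT, HSD11B2, SLC7A3, SLC38A4, dsc2l, BHLHE40, NQO1, fabp10a and MAT1A are among the 29. For a gene outside the 29, the fish without which its call was lost are given with it.

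Of the 29 genes that remained called, CYP1A1 (ENSDARG00000098315) had the largest difference among those higher in the high run. It encodes a cytochrome P450 that oxidises aromatic pollutants and is the classic target of the aryl hydrocarbon receptor. It was read at 20.1, 18.1, 19.6 and 30.8 CPM in the low run and at 132, 274, 125, 191 and 195 CPM in the high run. Every high-run fish was above every low-run fish. The run means were 22.1 ± 5.85 CPM (SD, n = 4) and 183 ± 60.1 CPM (n = 5), an 8.28-fold difference (log2 3.05 ± 0.28, adjusted p = 0.00518). Leaving out 1 fish kept it between 2.86 and 3.25 (highest adjusted p = 0.0262).

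The 2 receptor repressor genes, whose products compete with the aryl hydrocarbon receptor and are themselves induced by it, were higher in the high run as well. They and the 4 genes that follow in this paragraph were chosen after their values were seen. ahrra stood at 2.66, 2.58, 2.55 and 2.66 CPM and at 4.21, 6.23, 6.95, 6.05 and 4.33 CPM, with no overlap (1.09 ± 0.19, adjusted p = 0.0169; 0.0619 without fish 174). ahrrb was low in both runs, at 0.647 to 1.22 CPM and 1.4 to 4.11 CPM (1.4 ± 0.36, adjusted p = 0.0445), and its call was lost in 8 of 9 fits, those without fish 173, 174, 175, 177, 198, 199, 200 or 202 (highest adjusted p = 0.106). Other genes of the same response did not pass. CYP1B1 had 0.30 ± 0.24, cyp1c1 -0.49 ± 0.28, tiparp 0.35 ± 0.14 and the receptor gene ahr2 itself 0.10 ± 0.10 (adjusted p = 0.432, 0.265, 0.142 and 0.502). Of these 7 genes 3 were thus called higher, where 3.72% of all genes were. Most of the 7 were chosen after their values were seen, so the count describes them and is no test of the response. A gene that was not called is not shown to be equal between runs.

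**Figure D2:**
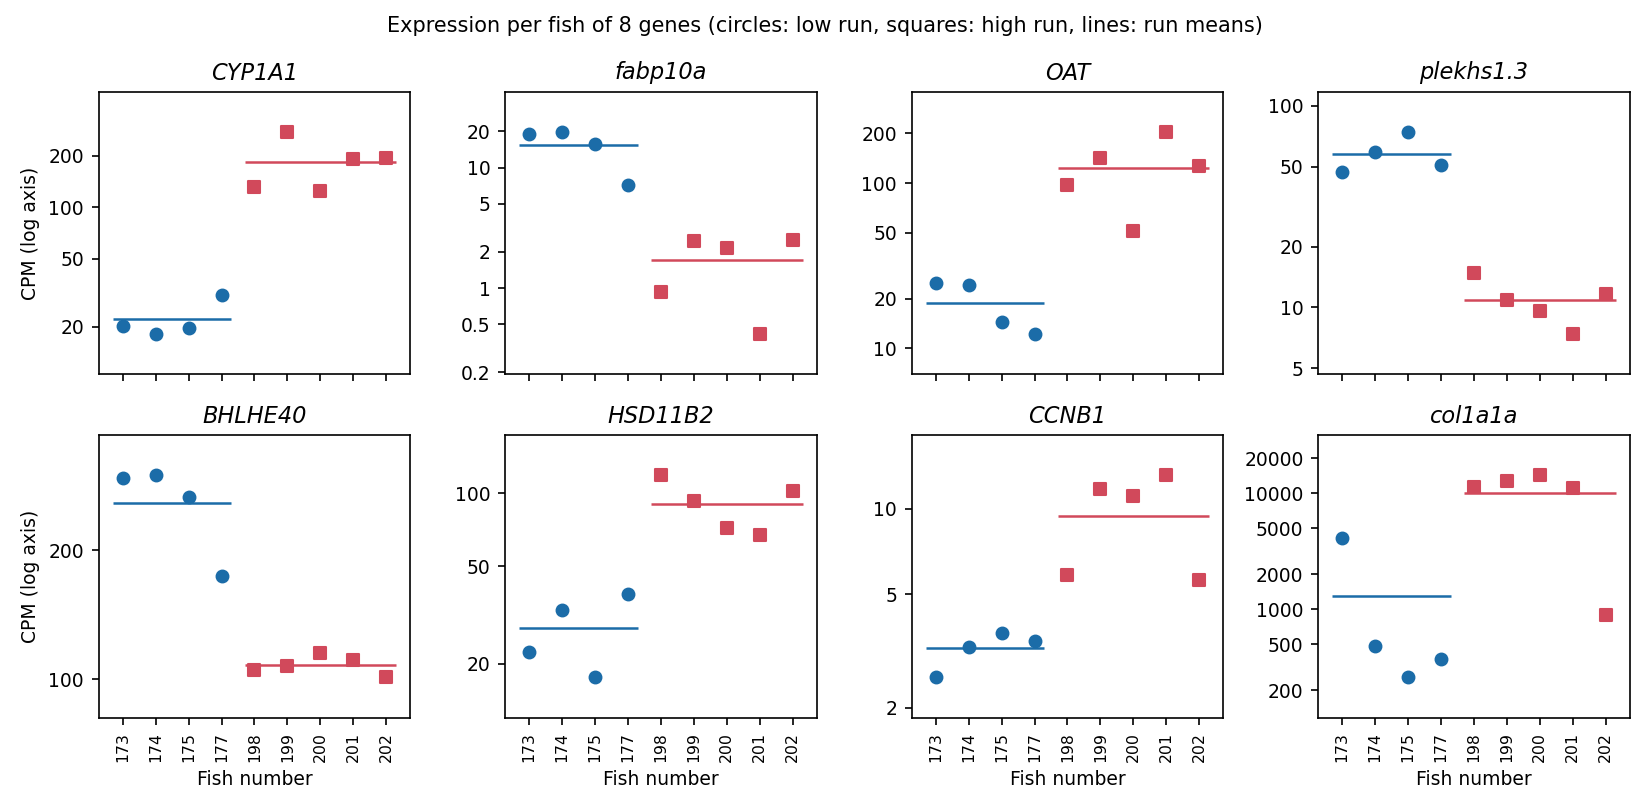
CPM per fish on a log axis for 8 genes, with low-run fish as circles, high-run fish as squares and the run mean as a line. CYP1A1, OAT, HSD11B2 and CCNB1 are higher in every high-run fish, fabp10a, plekhs1.3 and BHLHE40 are lower in every high-run fish, and col1a1a overlaps through fish 173 (4070 CPM) and fish 202 (887 CPM).

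Transcripts that encode liver-made plasma proteins were lower in the high run. Of 40 identifiers on that list, 29 passed the filter on low counts, 27 were called lower and 0 higher. The median was -3.55, against 0.009 over all genes. Because several members were near 0 in the high run, part of the list could pass the filter only through the low run; without the filter the median was -3.16. In bulk tissue, fewer cells of a type and less RNA per cell cannot be told apart. The liver fatty acid binding protein gene fabp10a, a hepatocyte marker in zebrafish, stood at 18.9, 19.6, 15.8 and 7.12 CPM in the low run and at 0.927, 2.47, 2.17, 0.416 and 2.53 CPM in the high run. Fish 177 was the lowest of its run, yet above every high-run fish. The difference was -3.16 ± 0.49 (adjusted p = 0.0139).

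Fibrinogen, apolipoprotein and iron-handling genes were also lower. The fibrinogen alpha chain gene fga was at 13.2, 15.2, 10.33 and 3.04 CPM and at 0.309, 0.608, 1.16, 0.189 and 0.884 CPM (-4.03 ± 0.56, adjusted p = 0.00998). apoa1b, the main protein of high-density lipoprotein, was at 37.4, 45.8, 33.3 and 12.6 CPM and at 1.16, 2.18, 3.59, 0.643 and 3.01 CPM (-3.92 ± 0.51, adjusted p = 0.0089). In both genes the runs did not overlap and fish 201 was lowest. The haem scavenger gene hpxa had -4.21 ± 0.60, the fetuin gene fetub -4.24 ± 0.66, the apolipoprotein genes apoc2 -4.10 ± 0.57 and apoc1 -2.92 ± 0.44, and ambp -3.57 ± 0.43 (adjusted p = 0.011, 0.0137, 0.00967, 0.0128 and 0.00816). apoa2 had -3.95 ± 0.63 and apobb.1 -4.21 ± 0.71, both lost without fish 174 (adjusted p = 0.0514 and 0.0545). The transferrin gene tfa had -3.72 ± 0.66, lost without fish 174 or 199 (highest adjusted p = 0.0625).

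The members that were not called were cyp2p6, with -0.01 ± 0.23 and means of 4.52 and 4.48 CPM, and RBP4, which encodes the plasma carrier of vitamin A. RBP4 was by far the most abundant member, at 1910, 1800, 1970 and 2370 CPM and at 1730, 1530, 1640, 1550 and 1740 CPM (-0.30 ± 0.11, adjusted p = 0.110). The other 28 genes together held 335, 337, 209 and 85.9 CPM in the low run and 18.3, 28.6, 34, 12 and 37.9 CPM in the high run. All 4 low-run fish were thus above all 5 high-run fish, at levels that are a small part of each library. Liver is not part of skin, and how these transcripts came to be in the libraries was not tested. Markers of pancreas and gut had 20 members tested, 0 called and a median of -0.94, with the list sums overlapping at 49.1 to 92.5 CPM and 46.2 to 83.9 CPM. MAT1A, the liver form of the enzyme that makes S-adenosylmethionine, is not on the liver list. It was at 15.8, 24.5, 14.5 and 23.9 CPM and at 4.13, 3.22, 6.01, 4.73 and 6.72 CPM, with no overlap (-1.98 ± 0.25, adjusted p = 0.00816). Fish 177, lowest of the low run for the other 28 liver genes together, was near the top for MAT1A. At 3.75 nM the MAT1A run difference was -1.17 ± 0.49 (not called, adjusted p = 0.162), where the liver list median was 0.17. Whether MAT1A and the liver list differed between runs for the same reason was not tested.

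Of 18 complement genes tested, 5 were called lower and 0 higher. The list median of -0.15 depended on the fit: it was -1.26 with no filter on low counts, -0.71 with 17 fish and -1.26 with 26 fish. The genes called lower included very rare and abundant transcripts. The terminal components c8a (-3.17 ± 0.40) and c9 (-4.06 ± 0.83) and the inhibitor serping1 (-3.85 ± 0.70), all typical liver products, were among them (adjusted p = 0.00821, 0.0266 and 0.0199). All 3 were under 1 CPM in every high-run fish, and at 0.419 to 1.36, 0.837 to 7.33 and 0.799 to 3.47 CPM in the low run. Near 0 in the high run, they could pass the filter on low counts only through the low run. The component c5, at 0.266 to 1.78 CPM and 0.0884 to 0.502 CPM, had -2.29 ± 0.59 (adjusted p = 0.0453) and kept its call in 1 of the 8 fits without 1 fish in which it was tested, losing it without fish 173, 174, 175, 199, 200, 201 or 202 (highest adjusted p = 0.118). In fish 201, c9 and serping1 were both at 0 CPM. c9 was not called without fish 174, 175 or 199 and serping1 not without fish 174 or 199 (highest adjusted p = 0.0804 and 0.0676). cfd, complement factor D, was abundant in both runs, at 1950, 2040, 2630 and 2280 CPM and at 1050, 1390, 1720, 1320 and 1410 CPM (-0.69 ± 0.15, adjusted p = 0.031; lost without fish 174, 175, 177, 199 or 201, highest adjusted p = 0.0793).

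Part of the dermal list was higher in the high run. Of 65 identifiers for dermal fibroblasts and their matrix, 64 were tested, 15 were called higher and 0 lower, and 62 lay above 0, the median being 0.94. The list means overlapped, because fish 173 lay at 0.14 (log2 CPM centred per gene) among low-run fish at -0.77 to -1.08, and fish 202 at -0.41 among high-run fish at 0.40 to 0.99. THBS1 (ENSDARG00000010785), the matrix protein thrombospondin-1, was at 214, 168, 80.8 and 188 CPM and at 538, 758, 429, 476 and 530 CPM (1.75 ± 0.28, adjusted p = 0.0152; 0.0545 without fish 174). Here the runs did not overlap. PLOD2, a collagen lysine hydroxylase, was low, at 2.07, 1.07, 1.12 and 1.75 CPM and at 9.81, 8.62, 6.57, 5.37 and 2.51 CPM (2.12 ± 0.40, adjusted p = 0.0206).

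The fibroblast transcription factor gene PRRX1 had 0.92 ± 0.17 and the protease inhibitor gene TIMP2 (ENSDARG00000061226) 1.04 ± 0.19 (adjusted p = 0.0198 and 0.0199), both without overlap. PLOD2 and PRRX1 were not called without fish 174, 175 or 199, and TIMP2 not without fish 174, 175, 177 or 199 (highest adjusted p = 0.0719, 0.0701 and 0.0704). The proteoglycan gene BGN (ENSDARG00000017884) was at 92.3, 20.9, 28.8 and 32 CPM and at 208, 259, 225, 256 and 50 CPM (2.2 ± 0.56, adjusted p = 0.0447). Its call was lost without any fish other than 173 and 202, and the difference was 2.87 without fish 173 and 2.44 without fish 202 (adjusted p = 0.0252 and 0.0211). The matricellular gene POSTN (ENSDARG00000043806) had 1.96 ± 0.45 (adjusted p = 0.0343; lost without fish 174, 175, 177, 198 or 199, highest adjusted p = 0.100). The more abundant POSTN copy (ENSDARG00000104267) had 1.53 ± 0.48 (adjusted p = 0.0749).

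Type I collagen itself spread widely between fish and was not called. col1a1a was at 4070, 485, 259 and 368 CPM and at 11400, 12800, 14200, 11000 and 887 CPM. Fish 173 stood above its run and fish 202 below its own, so the runs overlapped (2.96 ± 1.01, adjusted p = 0.0914). COL1A2, the other chain, had the same pattern, at 4090, 531, 336 and 483 CPM and at 12500, 13000, 12700, 10300 and 1030 CPM (2.86 ± 0.94, adjusted p = 0.082). abi3bpb, which encodes a collagen-binding matrix protein, was higher in the high run (2.39 ± 0.50, adjusted p = 0.0283), with fish 202 at 367 CPM among the high values and fish 200 at 88.9 CPM just under fish 173 at 91.6 CPM (lost without fish 174, 175, 177 or 199, highest adjusted p = 0.0875). COL11A1, a minor fibrillar collagen, had 2.23 ± 0.55 (adjusted p = 0.0416; lost without fish 174, 175, 177, 198, 199, 200 or 201).

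Of 37 scale bone genes tested, 5 were called higher and 0 lower, and 12 lay below 0 (median 0.35). The list mean of fish 202, -0.70, was within the range of the low-run fish, -0.76 to 0.09. ENTPD5, needed for mineralisation in zebrafish, was at 14.5, 2.86, 2.31 and 5.67 CPM and at 61.2, 56.3, 84.7, 52.2 and 6.90 CPM (3.04 ± 0.75, adjusted p = 0.0404). Fish 202 again lay among the low-run fish, and the call was lost without fish 174, 175, 177, 198, 199 or 201 (highest adjusted p = 0.11). BMP4, a bone morphogenetic protein, was at 4.54, 2.97, 2.21 and 4.03 CPM and at 14.1, 17.1, 5.79, 9.65 and 6.78 CPM, with no overlap (1.63 ± 0.36, adjusted p = 0.0307; lost without fish 174, 175, 177, 198, 199 or 201, highest adjusted p = 0.0927). Of 41 endothelial genes, 5 were called higher and 1 lower (median 0.34), among them the caveolin gene CAV1 at 0.88 ± 0.17 and the vessel guidance receptor robo4 at 0.78 ± 0.17, with NOTCH1 (ENSDARG00000103554) at -0.67 ± 0.15 (adjusted p = 0.0221, 0.0282 and 0.0325). The first 2 were not called without fish 174, 175, 177 or 199, robo4 also not without fish 198 or 201, and NOTCH1 not without fish 174, 175, 199 or 201 (highest adjusted p = 0.0704, 0.0804 and 0.0873). kdrl, the endothelial receptor for VEGF, had 0.62 ± 0.20 (adjusted p = 0.0743).

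With the mean of the dermal list as a term in the fit, an alternative chosen after seeing the data, 1 gene was called higher and 0 lower. That term is made of genes that themselves differed between the runs. Of the 137 called genes picked for description, 137 kept their sign and 0 remained called. In 98 the log2 fold change stayed within 1.5 times its log2 value without the term. CYP1A1 had 3.14 with the term (adjusted p = 0.0664) and BGN 0.52 (adjusted p = 0.645). In the fish whose dermal list means lay near the other run, CYP1A1 was at 20.1 CPM (fish 173) and 195 CPM (fish 202). The part of dermal content in the run differences, that of CYP1A1 included, was not tested, and values of 2 fish are no test of it. Skeletal muscle genes had a median of 0.92, but 0 of 67 were called and the high-run list means ran from -1.04 in fish 201 to 1.78 in fish 198, overlapping the low run. Without fish 198 the median was 0.27. With the muscle mean as a term, 660 genes were called higher and 529 lower.

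**Figure D3:**
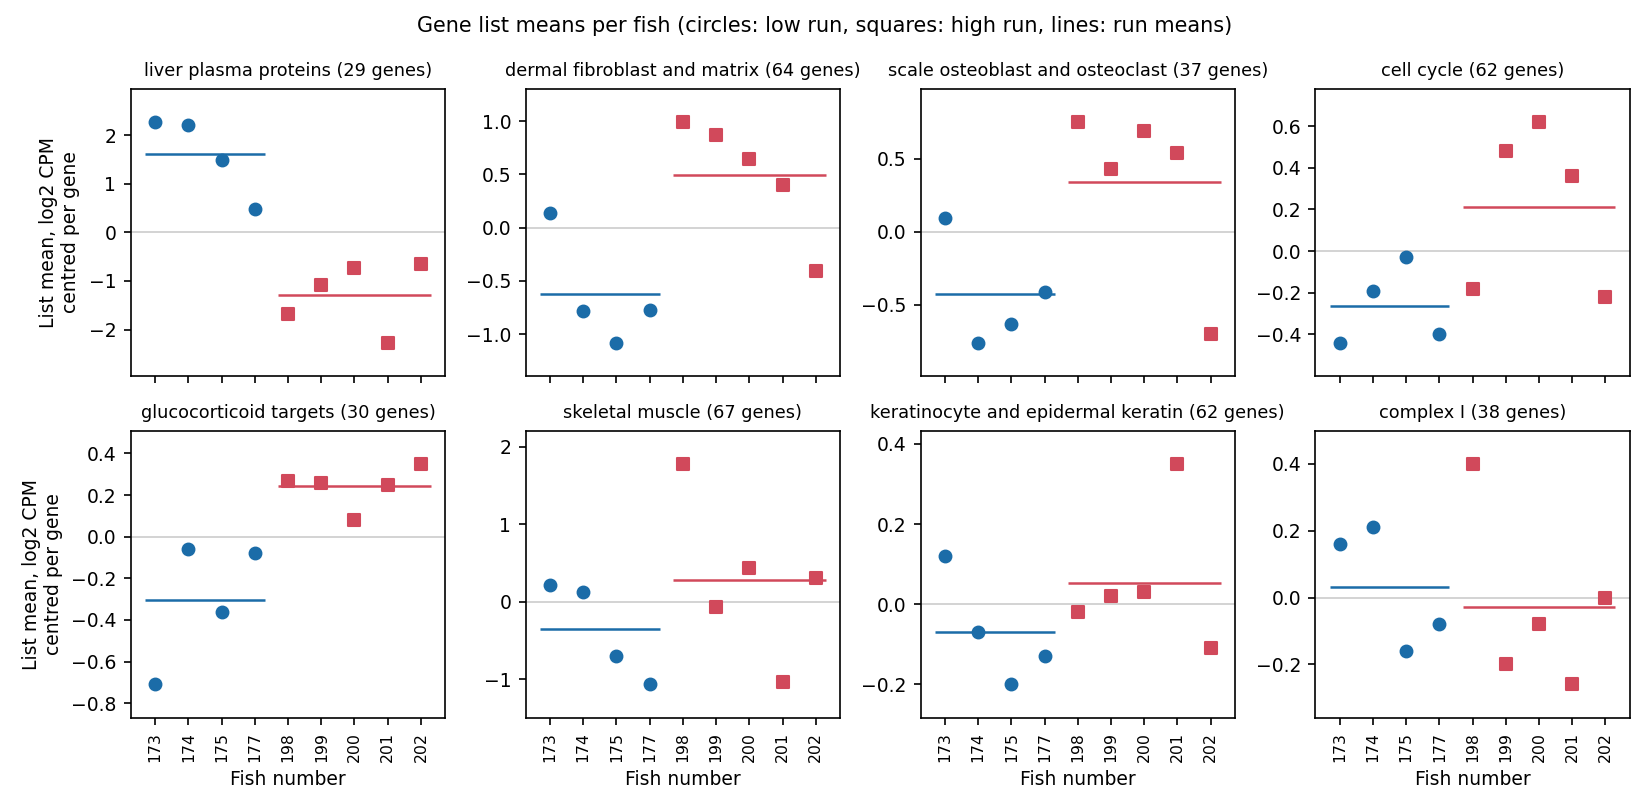
Mean of 8 gene lists in each fish, as log2 CPM centred per gene, with low-run fish as circles, high-run fish as squares and the run mean as a line. The liver list separates the runs, the dermal and scale lists show fish 173 and fish 202 near the other run, and the muscle list is highest in fish 198.

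Of 62 cell cycle genes tested, 17 were called higher and 0 lower, with a median of 0.42. The list means of fish 199, 200 and 201 (0.48, 0.62 and 0.36) were above the low run (-0.44 to -0.03), and those of fish 198 and 202 (-0.18 and -0.22) were within it. The mitotic cyclin gene CCNB1 was at 2.56, 3.26, 3.67 and 3.43 CPM and at 5.83, 11.7, 11.13, 13.1 and 5.63 CPM (1.55 ± 0.29, adjusted p = 0.0199). The kinase gene plk1 was at 3.42, 4.11, 5.4 and 3.43 CPM and at 7.68, 13.2, 11.7, 13.1 and 6.81 CPM (1.36 ± 0.25, adjusted p = 0.0199). TOP2A, the topoisomerase that untangles replicated DNA, was at 10.7, 12.9, 17.3 and 12.1 CPM and at 24.3, 53.6, 46.8, 41.0 and 22.9 CPM (1.51 ± 0.28, adjusted p = 0.0199). In these 3 called genes all 5 high-run fish were above the low run, with fish 198 and 202 at the bottom of their run.

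The spindle genes TPX2 and CENPF had 1.38 ± 0.26 and 1.55 ± 0.28, and CDK1, the kinase that drives mitosis, 1.58 ± 0.33 (adjusted p = 0.0199, 0.0199 and 0.0268). Calls were lost without fish 174 or 177 for CENPF and TOP2A, without fish 174, 177 or 199 for plk1 and TPX2, and without fish 174, 175, 177 or 199 for CCNB1 and CDK1 (highest adjusted p of the 6 genes 0.078). The proliferation marker mki67 had 1.11 ± 0.30 (adjusted p = 0.0515), with no overlap between runs. PCNA, the clamp of DNA replication, had 0.31 ± 0.16 (adjusted p = 0.232), at 51.3 to 57.9 CPM and 50.1 to 87.8 CPM. Of 28 p53 targets, 4 were called higher and 2 lower (median 0.00), against 3.72% and 4.22% of all genes. The damage recognition gene DDB2 was lower, at 50.6, 52.3, 55.1 and 52.5 CPM and at 27.14, 30.3, 37.9, 29.6 and 32.9 CPM (-0.74 ± 0.10, adjusted p = 0.0102). The cell cycle inhibitor gene cdkn1a was higher at a low level (1.24 and 3.09 CPM, 1.32 ± 0.28, adjusted p = 0.0273; lost without fish 174, 175, 199 or 201, highest adjusted p = 0.0827).

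Targets of the glucocorticoid receptor were higher in the high run in 5 of 30 genes and lower in 0, with a median of 0.53. HSD11B2, which inactivates cortisol, was at 22.3, 33.2, 17.6 and 38.7 CPM and at 118, 92.9, 72.2, 67.5 and 102 CPM (1.7 ± 0.26, adjusted p = 0.0128). foxo3b, a transcription factor of fasting and stress, was at 54.0, 68.2, 60.4 and 53.5 CPM and at 122, 104, 84.7, 96.9 and 90.5 CPM (0.76 ± 0.13, adjusted p = 0.0167). Neither gene overlapped between runs. GLUL, the glutamine synthetase gene, was at 570, 699, 928 and 1240 CPM and at 1640, 3220, 1090, 4020 and 4260 CPM, where fish 200 fell within the low run (1.73 ± 0.42, adjusted p = 0.0396; lost without fish 173, 174, 175, 177, 199, 201 or 202, highest adjusted p = 0.112). FKBP5, a receptor co-chaperone, ranged widely in the low run, at 68.4, 570, 198 and 967 CPM, against 1250, 1120, 1600, 1800 and 1280 CPM. It was not called (1.64 ± 0.62, adjusted p = 0.115), although the runs did not overlap.

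Several single genes of amino acid handling, which no list covered, were higher in the high run. OAT, ornithine aminotransferase, was at 24.9, 24.1, 14.5 and 12.2 CPM and at 96.8, 142, 51.1, 203 and 127 CPM, a 6.54-fold difference without overlap (2.71 ± 0.40, adjusted p = 0.0119). SLC7A3 (ENSDARG00000020645), a carrier of cationic amino acids, was at 67.1, 74.6, 56.6 and 98.3 CPM and at 190, 285, 200, 266 and 295 CPM (1.74 ± 0.20, adjusted p = 0.00796). SLC38A4, a further amino acid carrier, was at 39.6, 99.5, 65.5 and 93.8 CPM and at 220, 221, 303, 385 and 345 CPM (1.98 ± 0.29, adjusted p = 0.0119). These 3 calls held in each fit without 1 fish. The 2 carriers and the 3 genes that come next were chosen after their values were seen.

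SMOX, spermine oxidase, had 1.89 ± 0.48, AMD1, which commits S-adenosylmethionine to polyamines, 1.49 ± 0.34, and MAT2A (ENSDARG00000037121), 1.51 ± 0.32 (adjusted p = 0.0442, 0.0332 and 0.029). MAT2A is the non-liver counterpart of MAT1A, which was lower. Their calls were lost without 6, 4 and 5 of the fish, in each case including fish 174, 175 and 199 (highest adjusted p = 0.115, 0.0977 and 0.0897). SMOX also lost its call without fish 173, 198 or 201, AMD1 without fish 177 and MAT2A without fish 177 or 201. Of 27 genes of the integrated stress response, 6 were called higher and 1 lower (median 0.25). mthfd2, a mitochondrial folate enzyme, was at 19.6, 11.3, 13.8 and 22.2 CPM and at 25.9, 54.7, 42.5, 71.5 and 80.1 CPM (1.72 ± 0.34, adjusted p = 0.0234; lost without fish 174, 175 or 199, highest adjusted p = 0.0779). EIF2AK3, which encodes the sensor kinase PERK, was lower (-0.62 ± 0.14, adjusted p = 0.0301; lost without fish 174, 175, 177, 198 or 199, highest adjusted p = 0.0831).

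Clock genes were called in both directions, 5 of 46 higher and 4 lower (median -0.05), against 3.72% and 4.22% of all genes. BHLHE40, a repressor in the clock's feedback loop, was at 295, 299, 266 and 174 CPM in the low run and at 105, 107, 115, 111 and 101 CPM in the high run. The high-run fish were tightly grouped and all below fish 177, the lowest of the low run (-1.26 ± 0.15, adjusted p = 0.00816). NR1D2, a Rev-erb receptor gene, was at 82.9, 82.7, 72.0 and 68.7 CPM and at 36.3, 52.8, 51.2, 47.9 and 40.0 CPM (-0.75 ± 0.13, adjusted p = 0.0183; 0.065 without fish 174). PER2, the light-induced period gene of zebrafish, was higher, at 107, 111, 75.8 and 83.8 CPM and at 148, 161, 139, 164 and 165 CPM (0.72 ± 0.13, adjusted p = 0.0199; lost without fish 177 or 199, highest adjusted p = 0.0557).

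The receptor gene rorca was lower (-1 ± 0.19, adjusted p = 0.0203; lost without fish 174, 175 or 199, highest adjusted p = 0.0582). PER3 was lower too (-0.77 ± 0.21, adjusted p = 0.0488; lost without fish 173, 174, 175, 198, 199, 201 or 202, highest adjusted p = 0.123). The PER1 copies had 0.88 ± 0.39 (ENSDARG00000056885) and -0.45 ± 0.21 (ENSDARG00000012499), and NR1D1 had -0.76 ± 0.24 (adjusted p = 0.167, 0.184 and 0.078). The hour of sampling was not available, so a difference in time of day between the runs was not tested.

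In the epidermis, structural genes were called in both directions. Of 62 keratinocyte genes, 5 were called higher and 5 lower (median 0.12), against 3.72% and 4.22% of all genes. The keratin genes krt5 and krt4 had -0.08 ± 0.19 and -0.31 ± 0.18 (adjusted p = 0.805 and 0.292). The desmosomal cadherin gene dsc2l, which joins keratinocytes, was at 481, 347, 246 and 298 CPM and at 1020, 1090, 872, 1310 and 864 CPM (1.59 ± 0.21, adjusted p = 0.00895). It was higher in every high-run fish. A partner cadherin, dsg2.1, had 1.12 ± 0.21 (adjusted p = 0.0199; lost without fish 174, 175, 177 or 199, highest adjusted p = 0.0704).

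Lower in the high run was krt17, a type I keratin gene, at 358, 418, 369 and 511 CPM and at 179, 182, 274, 193 and 219 CPM (-0.98 ± 0.16, adjusted p = 0.0156; 0.0544 without fish 174). The annexin gene anxa1d was at 21.3, 20.5, 18.9 and 20.6 CPM and at 9.77, 8.80, 12.2, 10.7 and 7.31 CPM (-1.06 ± 0.14, adjusted p = 0.0093), and its relative anxa1c had -1.14 ± 0.19 (adjusted p = 0.0166; 0.0567 without fish 174). None of these 3 overlapped between runs. CYP27C1, which converts vitamin A1 to vitamin A2, was at 26.2, 18, 23.4 and 20.7 CPM and at 7.30, 7.01, 10.23, 10.33 and 8.90 CPM (-1.34 ± 0.16, adjusted p = 0.00816). ALDH1A3, a retinoic acid synthase gene, had -1.21 ± 0.21 (adjusted p = 0.0166; 0.0545 without fish 174). Both were chosen after their values were seen. Mucous cell genes had 1 of 20 called higher, near the 3.72% over all genes, and 0 lower, with the mucin muc5.1 at 0.23 ± 0.26 (adjusted p = 0.581). Ionocyte genes had 3 of 30 called higher, against 3.72% over all genes, and 0 lower (median 0.14). Among the 3 was the sodium pump subunit ATP1B1 (ENSDARG00000013144) at 0.63 ± 0.12 (adjusted p = 0.021). Its call was lost without fish 174, 175, 177 or 199 (highest adjusted p = 0.0687).

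3 genes of the plekhs1 cluster, which encode pleckstrin homology domain proteins, were lower in the high run. plekhs1.3 was at 47.1, 59.3, 73.9 and 51.1 CPM and at 14.8, 10.9, 9.60, 7.38 and 11.7 CPM, a 5.32-fold difference with a wide gap between the runs (-2.41 ± 0.20, adjusted p = 0.00518). plekhs1.4 and plekhs1.2, chosen after their values were seen, had -1.93 ± 0.32 and -1.64 ± 0.33 (adjusted p = 0.0165 and 0.026). plekhs1.4 was lost without fish 174 and plekhs1.2 without fish 174, 175, 177 or 199 (highest adjusted p = 0.0544 and 0.0782). Reads shared between such near copies could be split by the counting, so the 3 values are uncertain as separate genes.

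Of 32 interferon response genes, 1 was called higher and 3 lower (median -0.17), against 3.72% and 4.22% of all genes. irf1b, an interferon regulatory factor, was at 140, 157, 203 and 128 CPM and at 40.1, 46.7, 93.4, 51.3 and 80 CPM (-1.33 ± 0.26, adjusted p = 0.0228). Its copy irf1a was low, at 0.592 to 2.93 CPM and 0.270 to 0.448 CPM (-2.55 ± 0.43, adjusted p = 0.0166). Neither gene overlapped between runs. At its high-run level, irf1a could pass the filter on low counts only through the low run. irf1b was lost without fish 174, 175 or 199 and irf1a without fish 174 (highest adjusted p = 0.0704 and 0.0562). ifit9 had -1.20 ± 0.26 and the antiviral gene mxe 1.00 ± 0.23 (adjusted p = 0.0294 and 0.0355), each lost in 6 of 9 fits, ifit9 without fish 174, 175, 177, 198, 199 or 201 and mxe without fish 173, 174, 175, 199, 201 or 202. The classic targets isg15 and mxa had -0.16 ± 0.30 and -0.35 ± 0.18 (adjusted p = 0.766 and 0.231).

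ciita, the master regulator of MHC class II, was at 32.6, 42.9, 48.4 and 36.7 CPM and at 15.9, 14.6, 24.4, 13.1 and 21.3 CPM (-1.17 ± 0.20, adjusted p = 0.0166; 0.0567 without fish 174). It was chosen after its values were seen. Of 28 antigen presentation genes, 25 had negative fold changes and 1 was called, psmb13a at -0.53 ± 0.14 (adjusted p = 0.0495), which was called in 1 of the 9 fits without 1 fish, that without fish 173 (highest adjusted p = 0.123). The list means per fish overlapped, at -0.18, 0.49, 0.56 and 0.03 and at -0.54, -0.47, 0.10, 0.23 and -0.22. b2m had -0.22 ± 0.19 (adjusted p = 0.48). Of 29 inflammatory cytokine genes tested, 1 was called higher and 2 lower (median -0.15). With 3.72% of all genes higher and 4.22% lower, counts this small are no result about that list. The 2 lower were the NF-kB feedback inhibitor nfkbiaa at -0.93 ± 0.19 and the NF-kB subunit gene nfkb2 at -0.79 ± 0.19 (adjusted p = 0.0245 and 0.0379). The matrix growth factor gene tgfb1a was higher, at 48.4, 46.3, 40.8 and 44.0 CPM and at 78.7, 77.9, 68.9, 64.6 and 75.1 CPM (0.70 ± 0.10, adjusted p = 0.0093). nfkbiaa was lost without fish 174, 175, 177 or 199 and nfkb2 also without fish 198 or 201 (highest adjusted p = 0.0793 and 0.0994).

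Macrophage genes had 0 of 26 called higher and 1 lower (median 0.15), neutrophil genes 1 of 16 higher and 0 lower (median 0.18), and lymphocyte genes 2 of 32 higher and 3 lower (median -0.21). With 3.72% of all genes higher and 4.22% lower, counts this small are no result about these cell types. GATA3, a transcription factor of lymphocytes and also of epithelia, was at 110, 130, 123 and 111 CPM and at 83.3, 80.5, 65.5, 80.5 and 76.8 CPM, with no overlap (-0.61 ± 0.10, adjusted p = 0.016; 0.0583 without fish 174). apoeb, abundant in macrophages and other skin cells, was at 2150, 2520, 2350 and 2500 CPM and at 1270, 1220, 1700, 1970 and 1530 CPM (-0.63 ± 0.15, adjusted p = 0.0391; lost without fish 174, 175, 177, 198, 199 or 202, highest adjusted p = 0.11).

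Antioxidant genes were lower where called, with 0 of 39 higher and 4 lower (median -0.15). NQO1, a quinone reductase and target of Nrf2, was at 53.3, 57.0, 64.9 and 64.0 CPM and at 28.2, 27.5, 30.9, 27.7 and 18.5 CPM (-1.17 ± 0.15, adjusted p = 0.00816). It kept its call in every fit without 1 fish. GSR, glutathione reductase, had -0.69 ± 0.16, SOD1, the cytosolic superoxide dismutase, -0.51 ± 0.13, and prdx6, a peroxiredoxin, -0.32 ± 0.08 (adjusted p = 0.0331, 0.042 and 0.044). These 3 did not overlap between runs but were lost in 6, 7 and 8 of the 9 fits: GSR remained called without fish 173, 200 or 202, SOD1 without fish 173 or 200, and prdx6 without fish 200.

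In energy metabolism, 2 of 33 glycolytic genes tested were called higher and 4 lower (median -0.07), against 3.72% and 4.22% of all genes. PFKL, the liver-type phosphofructokinase gene, was at 24.6, 28.2, 29.8 and 28.9 CPM and at 10.35, 9.66, 16.5, 7.60 and 12.6 CPM (-1.30 ± 0.20, adjusted p = 0.0128). The liver pyruvate kinase gene PKLR and ldhbb were near 0 in the high run (-3.13 ± 0.59 and -3.03 ± 0.59, adjusted p = 0.0206 and 0.0229), both lost without fish 174 or 199 (highest adjusted p = 0.0681 and 0.0748). They could pass the filter on low counts only through the low run, and both are among the 4 genes called lower. PFKFB3, which makes the activator of phosphofructokinase, was higher, at 10.8, 18.9, 16.7 and 18.5 CPM and at 65.5, 45.3, 39.9, 20.3 and 72.7 CPM (1.59 ± 0.34, adjusted p = 0.0304; lost without fish 174, 175, 177, 198 or 199, highest adjusted p = 0.0815). Sterol and fatty acid genes had 4 of 52 called higher and 3 lower (median 0.30), where 3.72% and 4.22% of all genes were called. SCAP, the escort of the sterol-regulated SREBP factors, was at 63.3, 88.5, 107 and 89.8 CPM and at 191, 248, 168, 301 and 219 CPM, with no overlap (1.37 ± 0.20, adjusted p = 0.0115). ACACA, the first enzyme of fatty acid synthesis, was lower (-0.53 ± 0.12, adjusted p = 0.0325; lost without fish 174, 175, 177, 198 or 199, highest adjusted p = 0.0893).

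No gene of the respiratory chain was called. For complex I, the target of rotenone, 0 of 38 were called in either direction, with a median of -0.06 and fold changes from -0.53 to 0.17. NDUFS1, a core subunit, had 0.00 ± 0.16 and MT-ND1, the mitochondrial core subunit, -0.04 ± 0.21 (adjusted p = 0.993 and 0.914). Complexes II to V had 0 of 45 called (median -0.05), mitochondrial-genome genes 0 of 13 (median -0.03) and the proteasome 0 of 39 (median -0.06). At an unadjusted p under 0.05, 5526 of all genes passed in edgeR, and DESeq2 called 3553 of all genes. Cytosolic ribosomal protein genes had 0 of 78 called, yet 77 of the 78 had negative fold changes, with a median of -0.29. Genes read in the same fish are not separate observations. The list means per fish overlapped, at 0.21, 0.17, -0.10 and 0.34 and at 0, -0.06, -0.13, -0.07 and -0.36. Heat shock genes had 0 of 43 called higher and 1 lower (median 0.14), the lower one being the co-chaperone FKBP4 at -0.65 ± 0.17 (adjusted p = 0.047; lost without fish 174, 175, 177, 198, 199 or 202, highest adjusted p = 0.115). hsp70l and hsp90aa1.1 had -0.50 ± 0.37 and -0.95 ± 0.35 (adjusted p = 0.391 and 0.107).

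The other fish carry the same split of numbers and share no fish with this comparison. Among the 3-year fish at 37.5 nM (4 against 4), edgeR called 0 of 19031 genes between runs (0%), with 2204 at an unadjusted p under 0.05 and 295 higher and 189 lower by DESeq2. Among the 1-year fish at 3.75 nM (5 against 4), it called 1581 of 19191 (8.24%), of which 552 (2.88%) were higher and 1029 (5.36%) lower in the high run. Of the genes called at 1 year and 37.5 nM, 71.7% (1075 of 1500 measured in both) had the same sign at 3 years, against 54.3% of all genes. The share was 77.9% (1172 of 1504) at 3.75 nM, against 61.1% of all genes. With the 3.75 nM fish, 146 genes were called in both comparisons, 132 with the same sign and 14 with opposite signs. They were 9.71% of the genes called at 37.5 nM, where 8.24% of all genes were called at 3.75 nM. They were 9.28% of the genes called at 3.75 nM, where 7.94% of all genes were called at 37.5 nM. The number of shared calls was thus near the share over all genes.

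The size was smaller in the other fish. Genes called higher had a median of 1 here, 0.30 at 3 years and 0.62 at 3.75 nM, and genes called lower had -0.80, -0.20 and -0.25. Picking genes by the first of these values favours a larger value there. Tested directly, the run difference at 1 year minus that at 3 years was called in 0 of 19958 genes (0%; 3274 at an unadjusted p under 0.05, edgeR). The strain label of the 3-year fish adds Tg(flk:mCherry), so age cannot be told apart from strain label in that contrast. The 37.5 nM and 3.75 nM fish were deposited in separate count tables, so concentration cannot be told apart from table. The run difference at 37.5 nM minus that at 3.75 nM was called in 1140 of 19952 genes (5.71%), higher in 661 (3.31%) and lower in 479 (2.4%). CYP1A1 was one of them: its run difference was 3.05 at 37.5 nM and 0.36 ± 0.48 at 3.75 nM, a difference of 2.68 ± 0.59 (adjusted p = 0.0148). At 3 years it was 0.09 ± 0.52, but the difference from 1 year was not called (2.94, adjusted p = 0.0786).

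The liver list, at -3.55 here, had a median of -1.54 at 3 years and 0.17 at 3.75 nM, and for none of its genes was the difference between the groups called. For fabp10a the run difference at 37.5 nM minus that at 3.75 nM was -2.84 ± 1.52 (adjusted p = 0.304). The dermal list was at 0.94 here, -0.22 at 3 years and 0.55 at 3.75 nM, where 5 of 63 genes were called higher, against 2.88% of all genes. Medians of glucocorticoid targets were positive in all 3 groups, at 0.53, 0.25 and 0.68. So were those of cell cycle genes (0.42, 0.60 and 0.30), sterol and fatty acid genes (0.30, 0.60 and 0.77) and scale bone genes (0.35, 0.17 and 0.62). At 3.75 nM, 0 of 63 cell cycle genes were called higher and 2 lower. Glucocorticoid targets had 2 of 30 called higher and 1 lower, and sterol and fatty acid genes 2 of 52 higher and 1 lower. With 2.88% of all genes called higher and 5.36% lower there, counts this small are no result about these lists. At 3 years no gene was called. CYP27C1 was lower in the high run at 3.75 nM as well (-1.81, adjusted p = 0.00334), as were ALDH1A3 (-1.41, adjusted p = 0.0112), krt17 (-2.46, adjusted p = 0.00743) and anxa1d (-1.45, adjusted p = 0.0168). For krt17 the size differed between the concentrations (-0.98 at 37.5 nM, difference 1.46 ± 0.34, adjusted p = 0.0196 by the interaction contrast).

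Of 43 heat shock genes measured at 3.75 nM, 12 were called lower in the high run, against 5.36% of all genes. For 11 genes of the list the run difference was called higher at 37.5 nM than at 3.75 nM, against 3.31% of all genes. Among 62 keratinocyte genes measured at 3.75 nM, 14 were called lower there. For 6 genes of that list the run difference was called higher at 37.5 nM, and for 0 lower. krt4 had -0.31 ± 0.18 at 37.5 nM and -1.47 ± 0.14 at 3.75 nM (difference 1.15 ± 0.22, adjusted p = 0.00856). PCNA had 0.31 ± 0.16 and -0.87 ± 0.27 (difference 1.16 ± 0.32, adjusted p = 0.0435), and PER2 0.72 ± 0.13 and -0.15 ± 0.20 (difference 0.86 ± 0.24, adjusted p = 0.0483).

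**Figure D4:**
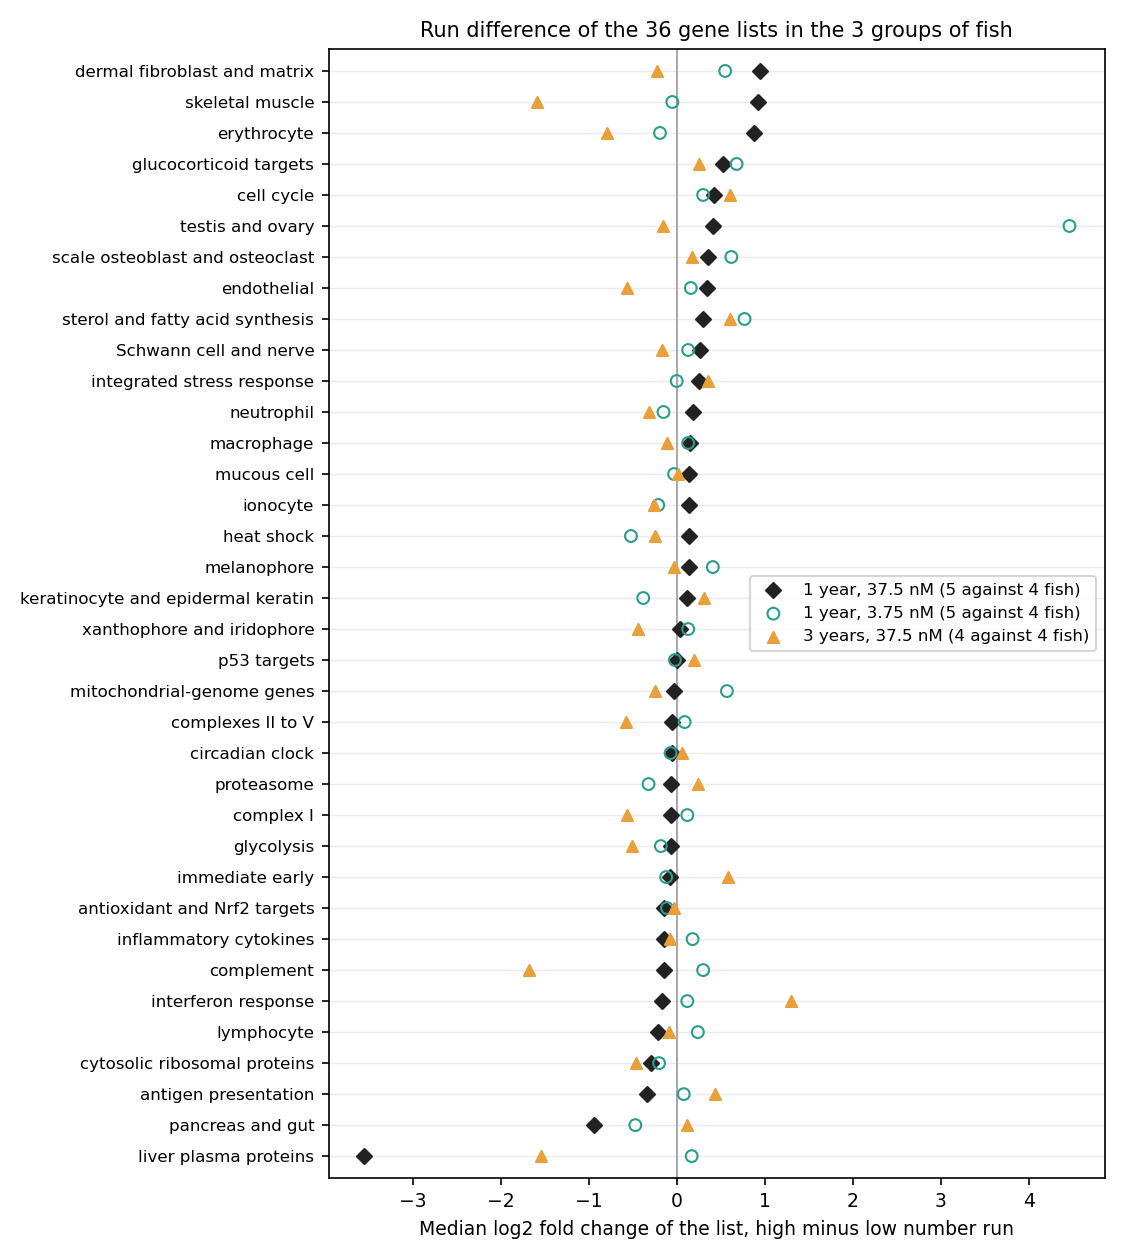
Median log2 fold change, high minus low number run, of each of the 36 gene lists in the 3 groups of fish. Diamonds are the 1-year fish at 37.5 nM, open circles the 1-year fish at 3.75 nM and triangles the 3-year fish at 37.5 nM. The liver list lies at -3.55 in the 1-year fish at 37.5 nM, and the testis and ovary list, with 0 genes called in any of the 3 groups, lies at 4.46 at 3.75 nM, where fish 190 sums to 913 CPM over the list and the other 8 fish to 13.4 to 46.6 CPM.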

How the data were processed

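Each fish gave 1 library of skin RNA. The kit, per the labels, was the TruSeq RNA Library Preparation Kit v2. The submitters' processing notes name CASAVA 1.8.2, STAR 2.4.1d, featureCounts 1.4.6-p4 and the GRCz10 build, with no role or order. The authors deposited raw counts per Ensembl gene for 32105 genes, 1 column per fish and no pooling; the use of strand in counting is not given in the sources used here. Deposited RPKM tables were not used. Symbols came from a gene name table (26269 identifiers had one, 4144 shared one).

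Runs follow the fish numbers in the titles. Low counts were removed by filterByExpr, libraries scaled by TMM, and runs compared by glmQLFit (robust) and glmQLFTest of edgeR 4.0.16, under R 4.3.3. P-values were adjusted by Benjamini-Hochberg over all genes tested, and 0.05 was the threshold. The standard error is the size of the log2 fold change over the square root of F. DESeq2 1.42.0 was an alternative. Run differences between groups were compared by interaction contrasts. The labels give 1 fish per library; whether fish shared a tank is not given in the sources used here. CPM per fish and list means (log2 CPM, prior count 2) come from the 9-fish fit. The 36 lists were matched by symbol or stem (137 entries had no identifier) and are described, not tested. Members, lists and rules were chosen with earlier results of these data known.

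Named genes were the 12 largest called changes per direction (mean log2 CPM at least 2, no placeholder symbol, and at least 80% of the 20 high-low fish pairs on the called side), up to 4 called members per list, else 2, and 25 listed whatever their result, also with earlier results known. Of these, mylpfa, cyp1a, fosab and hbba1 had no identifier under that symbol (cyp1a is listed as CYP1A1). Also described, after their values were seen, are ahr2, ahrra, ahrrb, CYP1B1, cyp1c1, tiparp, RBP4, cyp2p6, c5, POSTN, TOP2A, CDK1, krt5, dsg2.1, ciita, CYP27C1, ALDH1A3, SLC7A3, SLC38A4, SMOX, AMD1, MAT2A, plekhs1.2, plekhs1.4, ogfr1, ogfr2 and TNFSF10. One lymphocyte entry was removed because it is no lymphocyte gene. Tested on simulated data for the 9 fish (18825 genes, 200 changed), 46% of changes of 2-fold and 83% of those of 4-fold were found, false calls were 7.19%, and data with no change gave 0 calls. Each gene was simulated independently. Differences that many genes of a fish share were left out, so these rates need not hold for the real libraries. Figures were drawn with matplotlib 3.10.9. Alternatives were RLE scaling, no filter, DESeq2, fits over 17 or 26 fish, muscle or dermal list means as a term, a fit without liver, complement and gut genes, and leaving out each fish. The dermal term and the fit without those genes were added after seeing the data.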

Additional observations from a re-analysis of the deposited data

Results flagged for a closer look

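Within a run, single fish stood far from the others in 13 of 166 groups of values checked, where chance marks about 1 in 20. Type I and associated matrix genes account for 6 of them: col1a1a at 4074 CPM in fish 173 (259 to 485 in the rest of the low run) and 887 CPM in fish 202 (11000 to 14200 in the rest of the high run), COL1A2 at 4093 CPM in fish 173 (336 to 531) and 1027 CPM in fish 202 (10300 to 13000), and BGN (ENSDARG00000017884) at 92.3 CPM in fish 173 (20.9 to 32) and 50.02 CPM in fish 202 (208 to 259). The scale list mean of fish 202 was -0.70 (0.43 to 0.75 in the other high-run fish), and the heat shock list mean of fish 200 was -0.16 (0.05 to 0.09).

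The remaining values were krt4 at 3684 CPM in fish 175 (5370 to 5570), hsp70l at 1.07 CPM in fish 174 (0.526 to 0.544), NR4A3 at 70.19 CPM in fish 198 (12.1 to 21.4), cyt1 at 0.734 CPM in fish 198 (0.261 to 0.354) and CYP1A1 at 30.8 CPM in fish 177 (18.1 to 20.1). By the interaction contrast in edgeR, the run difference at 37.5 nM exceeded that at 3.75 nM by 2.68 for CYP1A1, 1.16 for PCNA and 1.15 for krt4 (log2; adjusted p = 0.0148, 0.0435 and 0.00856).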

How the results depend on the processing

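With edgeR the main counts were 709 genes higher and 804 lower in the high run; RLE scaling gave 745 and 793, no filter 551 and 669, and a fit without liver, complement and gut genes (added after seeing the data) 692 and 762. Counts moved by over 1.5 times with DESeq2 (1807 and 1746), 17 fish (290 and 397), 26 fish (127 and 121), the dermal mean as a term (1 and 0) and, for lower genes, the muscle mean (529). Leaving out 1 fish gave 53 to 949 higher and 80 to 1385 lower. At 3 years, DESeq2 called 295 higher and 189 lower, and leaving out 1 fish gave 0 to 2 and 0 to 1. At 3.75 nM, no filter gave 361 higher, DESeq2 1512 and 1801, and leaving out 1 fish 38 (without fish 164) to 1192 (without fish 189) and 152 to 1601. For 1 year minus 3 years, 26 fish gave 4 and 9, and leaving out 1 fish 0 to 9 and 0 to 12. For 37.5 minus 3.75 nM, 26 fish gave 230 and 240, and leaving out 1 fish 340 to 731 and 241 to 552.

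The complement median was -1.26 with no filter, -0.71 with 17 fish and -1.26 with 26 fish, and the muscle median 0.01 with the muscle mean as a term. Leaving out 1 fish, the median ranged from -0.55 to -0.01 for complement, 0.01 to 0.12 for heat shock, 0.27 (without fish 198) to 1.16 for muscle, 0.31 (without fish 199) to 1.1 for erythrocytes, -0.21 to 0.36 for immediate early genes, 0.10 to 0.91 for testis and ovary, -0.04 to 0.05 for the clock, -0.19 to 0.01 for complex I, -0.15 to 0.15 for mitochondrial-genome genes, -0.14 to 0.26 for melanophores, -0.14 to 0.19 for xanthophores, -0.06 to 0.08 for p53 targets, 0.03 to 0.31 for macrophages, 0.04 to 0.31 for ionocytes and 0.05 to 0.29 for neutrophils, so several medians near 0 changed sign. Among the named genes, signs turned in these, none of them called: NDUFS1 (0.00 with no filter, -0.02 with 17 fish, -0.18 with the muscle mean, -0.15 with the dermal mean), isg15 (0.01 and 0.23 with the muscle and dermal means), b2m (0.31) and actc1b (-0.24) with the dermal mean, and, leaving out 1 fish, NDUFS1 (-0.15 to 0.06), MT-ND1 (-0.19 to 0.15), cyt1 (-0.4 to 0.15) and krt5 (-0.22 to 0.06). Why counts moved was not tested. No paired analysis was possible because the runs share no fish number. With 4 and 5 fish, the difference of an uncalled gene is not shown to be equal to 0, and genes with few counts, such as c9, have wide errors.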

Other observations

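Apart from znf1179, hbaa2 and HBE1, these genes were chosen after their values were seen. znf1179, a zinc finger gene, was either high or low: fish 198, 199 and 200 had 48.7, 48.2 and 45.7 CPM, and the other 6 fish had 1.61, 2.15, 1.60, 2.21, 1.63 and 2.30 CPM. Its fold change of 3.95 ± 1.04 (edgeR adjusted p = 0.0476) therefore rests on 3 of the 5 high-run fish, and the call was lost in 7 of the 9 fits without 1 fish, those without fish 173, 174, 175, 177, 198, 199 or 200 (highest adjusted p = 0.117).

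ogfr2 and ogfr1, related to the opioid growth factor receptor, were lower in the high run. ogfr2 was at 223, 324, 182 and 218 CPM and at 42.4, 49.6, 105, 69.2 and 64.6 CPM (-1.84 ± 0.27, adjusted p = 0.0111), and ogfr1 at 18.5, 20.7, 16.6 and 17.1 CPM and at 5.14, 5.08, 8.29, 7.91 and 8.55 CPM (-1.38 ± 0.19, adjusted p = 0.0093). TNFSF10 (ENSDARG00000057241), a ligand of the TRAIL family, was at 47.1, 43.0, 52.6 and 57.0 CPM and at 25.4, 17.6, 19.4, 13.6 and 9.93 CPM (-1.54 ± 0.24, adjusted p = 0.0128). All 3 separated the runs and remained called in each of the 9 fits without 1 fish.

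The globin genes hbaa2 and HBE1 were higher in every high-run fish at low levels, with means of 0.575 ± 0.252 and 4.38 ± 2.92 CPM for hbaa2 (2.91 ± 0.56, adjusted p = 0.0221) and 2.32 ± 0.52 for HBE1 (log2, adjusted p = 0.0325). Both calls were lost without fish 174, 175, 177 or 199 (highest adjusted p = 0.0769 and 0.0927). With 7 counts in fish 177, hbaa2 could not pass the filter on low counts through the low run alone. Of 17 erythrocyte genes tested, hbaa2 was the 1 called, where 3.72% of all genes were called higher. HBE1 is not on that list.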
